A study of Homo sapiens with 4 samples.

Results

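The genes described here encode the proteins that cut and join messenger RNA: SR proteins, heterogeneous nuclear ribonucleoproteins (hnRNPs) and core spliceosome proteins. They were chosen by name, as every peak whose annotated gene symbol starts with SRSF, TRA2, HNRNP, SF3A, SF3B, U2AF, SNRP or PRPF. The rule took 62 of 9780 peaks, at 51 symbols, from cells overexpressing AIMP1. It took 14 of 4828 peaks, at 13 symbols, from wild-type cells. RefSeq lists 76 protein-coding genes with these names: 14 SR and TRA2 genes, 26 hnRNP genes and 36 core genes. All counts of genes below are out of these, and the readthrough transcript HNRNPUL2-BSCL2, which the rule also takes, is given apart.

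Acetylated histone H3 was mapped by chromatin immunoprecipitation and sequencing in H929 cells, a long-established line from a human plasma cell myeloma. One group overexpressed AIMP1, a subunit of the multi-tRNA synthetase complex, and the other was wild type; the labels do not say how AIMP1 was introduced or whether a control vector was used. Each group had 1 acetyl-H3 library and 1 input library, so there is no replicate spread, no test between the groups and no p-value for any difference between them. The inputs were not analysed here. Each peak carries a fold enrichment and a p-value that are the authors' own, and these are used to rank or describe peaks within a list. The closing section also applies a cut-off on each of them to both lists. Of 8 plasma cell marker genes, 7 carried promoter peaks with AIMP1 overexpression and 1 in wild type. None of the 16 B cell, T and NK cell, monocyte and erythroid markers had a promoter peak in either list. Counting peaks of any class, 5 of the 8 plasma cell markers had one in wild type. So did the T cell marker CD3E, with 2 wild-type peaks outside promoters, while the rest of the 16 had no peak. The plasma cell marker CD38 had no peak of any class in either list.

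Splicing removes introns in steps that these families share. U1 marks the start of an intron, U2AF binds the pyrimidine tract and acceptor site at its end, and the SF3A and SF3B complexes anchor U2 at the branch point. The SNRP genes encode Sm ring proteins and specific proteins of U1 and U2, and PRPF proteins act in the tri-snRNP and the activated spliceosome. SR proteins bind exonic enhancers and mostly favour exon inclusion, whereas hnRNPs coat nascent RNA and often oppose it. Acetylated H3 is a mark of active promoters, and plasma cells, from which myeloma arises, process large amounts of immunoglobulin messenger RNA.

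The stretches before the starts of 14 of these genes are shown because they lie under promoter peaks on which the results rest; that of HNRNPL lies under its peak of fold 14.15 and not under the one of fold 22.0. They are the genes with the 2 highest overexpression folds in each class, SRSF6 to U2AF2, followed by the other genes at which promoter peaks of both lists overlapped. Each line gives the 150 bases before the first start that RefSeq lists for the gene (GRCh38.p14), 5′ to 3′ on the strand of the gene. Capitals mark matches, on either strand, to motifs searched by their letters. CCGGAA is the core of the ETS motif and GGGCGG that of the SP and KLF motif. GCATGCG belongs to the NRF1 motif, the sequence TATAAA to the TATA box and the palindrome CACGTG to the E-box. The remaining motifs were CCAAT, which NF-Y binds, then TGACGT from the cyclic AMP response element, and lastly the element TCTCGCG.
SRSF6, chr20:43457746-43457895, plus strand: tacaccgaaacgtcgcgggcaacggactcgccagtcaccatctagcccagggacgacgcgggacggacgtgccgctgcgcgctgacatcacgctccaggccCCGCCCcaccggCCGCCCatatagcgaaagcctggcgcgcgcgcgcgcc
SRSF4, chr1:29181901-29182050, minus strand: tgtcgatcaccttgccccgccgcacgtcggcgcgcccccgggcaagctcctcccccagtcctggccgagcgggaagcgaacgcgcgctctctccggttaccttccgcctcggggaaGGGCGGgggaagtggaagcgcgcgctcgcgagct
HNRNPH3, chr10:68331543-68331692, plus strand: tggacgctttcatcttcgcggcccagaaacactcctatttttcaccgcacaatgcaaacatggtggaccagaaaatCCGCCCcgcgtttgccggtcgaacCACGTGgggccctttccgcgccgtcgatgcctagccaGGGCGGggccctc
HNRNPL, chr19:38852348-38852497, minus strand: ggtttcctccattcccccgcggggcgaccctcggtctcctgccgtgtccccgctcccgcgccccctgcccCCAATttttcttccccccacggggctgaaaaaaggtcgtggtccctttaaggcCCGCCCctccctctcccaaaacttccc
SF3B1, chr2:197435029-197435178, minus strand: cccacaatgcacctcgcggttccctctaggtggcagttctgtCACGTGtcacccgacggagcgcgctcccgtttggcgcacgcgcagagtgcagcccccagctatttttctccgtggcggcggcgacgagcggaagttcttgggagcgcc
U2AF2, chr19:55654885-55655034, plus strand: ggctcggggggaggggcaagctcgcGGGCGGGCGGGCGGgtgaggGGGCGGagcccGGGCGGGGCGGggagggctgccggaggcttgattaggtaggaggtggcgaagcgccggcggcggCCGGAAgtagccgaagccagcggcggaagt
HNRNPA0, chr5:137754364-137754513, minus strand: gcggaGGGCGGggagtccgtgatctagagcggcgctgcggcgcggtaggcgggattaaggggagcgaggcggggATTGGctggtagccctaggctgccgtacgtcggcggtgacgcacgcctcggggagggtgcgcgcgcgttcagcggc
HNRNPLL, chr2:38602929-38603078, minus strand: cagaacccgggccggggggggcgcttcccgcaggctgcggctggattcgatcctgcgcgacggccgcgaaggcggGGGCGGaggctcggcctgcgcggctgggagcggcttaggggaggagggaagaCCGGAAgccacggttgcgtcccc
HNRNPAB, chr5:178204383-178204532, plus strand: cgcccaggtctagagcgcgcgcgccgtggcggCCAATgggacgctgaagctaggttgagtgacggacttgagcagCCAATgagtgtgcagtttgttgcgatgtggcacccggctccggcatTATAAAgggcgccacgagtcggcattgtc
TRA2B, chr3:185938015-185938164, minus strand: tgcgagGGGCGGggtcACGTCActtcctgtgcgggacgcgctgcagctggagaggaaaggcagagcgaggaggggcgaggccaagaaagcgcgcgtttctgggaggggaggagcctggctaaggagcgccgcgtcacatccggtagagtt
PRPF8, chr17:1684868-1685017, minus strand: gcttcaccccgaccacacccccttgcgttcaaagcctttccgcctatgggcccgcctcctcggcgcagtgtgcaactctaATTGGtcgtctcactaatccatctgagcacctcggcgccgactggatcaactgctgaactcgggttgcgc
SNRPD3, chr22:24555500-24555649, plus strand: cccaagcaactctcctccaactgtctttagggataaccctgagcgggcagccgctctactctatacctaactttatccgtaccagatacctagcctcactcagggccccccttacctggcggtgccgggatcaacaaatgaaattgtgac
SF3B4, chr1:149927804-149927953, minus strand: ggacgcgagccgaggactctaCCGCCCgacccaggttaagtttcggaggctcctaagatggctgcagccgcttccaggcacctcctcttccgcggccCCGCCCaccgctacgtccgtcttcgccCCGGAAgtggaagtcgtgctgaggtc
PRPF6, chr20:63980982-63981131, plus strand: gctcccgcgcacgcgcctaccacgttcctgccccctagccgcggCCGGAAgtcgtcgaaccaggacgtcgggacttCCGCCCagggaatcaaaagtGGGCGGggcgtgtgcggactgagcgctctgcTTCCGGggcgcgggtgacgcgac

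All 14 windows lay inside an overexpression peak, and those of HNRNPA0, HNRNPAB, TRA2B, PRPF6, PRPF8, SF3B4 and SNRPD3 also lay inside a wild-type peak. A window was available for 66 of the 76 members and 15812 of 19970 protein-coding genes. CCGGAA was found before 16 of 31 core genes (51.6%), 4 of 23 hnRNP genes (17.4%) and 1 of 12 SR genes (8.33%), against 15.1% of all protein-coding genes and 21.3% of those with an overexpression promoter peak. CCAAT stood before 11 of 23 hnRNP genes (47.8%), 10 of 31 core genes (32.3%) and 2 of 12 SR genes (16.7%), against 26.5% of all genes. TGACGT stood before 4 of 12 SR genes (33.3%), 3 of 23 hnRNP genes (13%) and 6 of 31 core genes (19.4%), against 6.75%. CACGTG was found before 5 hnRNP genes (21.7%), 1 core gene (3.23%, SF3B1) and 0 SR genes, against 5.72%. GGGCGG was found before 65.2% of hnRNP, 41.9% of core and 41.7% of SR genes. It was found before 49.8% of all protein-coding genes and 63.5% of those with an overexpression promoter peak. TATAAA stood before 2 hnRNP genes, 0 core genes and 1 SR gene, SRSF3, against 6.43% of all genes. GCATGCG was found before 2 core genes, 1 SR gene and 0 hnRNP genes, against 3.59%. TCTCGCG was found before 2 hnRNP, 1 core and 1 SR gene, against 3.0%. Among protein-coding genes with an overexpression promoter peak the shares were 27.2% (CCAAT), 8.57% (TGACGT), 7.02% (CACGTG), 2.77% (TATAAA), 4.8% (GCATGCG) and 4.62% (TCTCGCG). A window counted once for a motif however many matches it held, and where matches overlapped, each was marked in capitals. A match is a run of letters and not a bound site. Median GC content was 65.3% for SR, 64.7% for hnRNP and 62.0% for core genes, against 64.7% for all protein-coding genes and 68.7% for those with an overexpression promoter peak. The SR gene SRSF8 had 33.3% GC and 1 CpG pair in its window, where the median SR gene had 16 CpG pairs.

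Most splicing genes had an acetyl-H3 promoter peak with AIMP1 overexpression and few had one in wild-type cells. A promoter peak, which in the authors' annotation lies within 3 kb of a transcription start site (TSS), was listed for 50 of 76 splicing genes (65.8%) with AIMP1 overexpression, against 33.9% of 19970 protein-coding genes. In the wild-type list 10 of 76 had one (13.2%), against 7.40% of protein-coding genes. All 10 were also among the 50, so 13.2% of splicing genes had promoter peaks in both lists, against 5.39%. None had one in the wild-type list only, against 2.01% of protein-coding genes, a share that would come to fewer than 2 of 76. Among genes with an overexpression promoter peak, 10 of 50 splicing genes (20.0%) had a wild-type one too, against 15.9%. In all 10 the promoter peaks overlapped by at least 1 bp, as they did in 75.1% of the 1076 protein-coding genes with promoter peaks in both lists (4.05% of all 19970). A gene with no wild-type peak had none at the authors' threshold, and may still have been acetylated. The lists also differed as a whole, with promoter peaks making up 84.9% of all overexpression peaks and 36.0% of all wild-type peaks. The difference between the lists is therefore not particular to splicing genes.

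By class, 12 of 14 SR and TRA2 genes (85.7%), 16 of 26 hnRNP genes (61.5%) and 22 of 36 core genes (61.1%) had an overexpression promoter peak. Within the core they were 5 of 6 SF3B genes, 2 of 3 SF3A genes, 2 of 3 U2AF genes, 7 of 12 SNRP genes and 6 of 12 PRPF genes. In the wild-type list they were 1 of 14 SR and TRA2 genes (7.14%), 4 of 26 hnRNP genes (15.4%) and 5 of 36 core genes (13.9%), so the SR share was near the share of all protein-coding genes. None of the 12 SRSF genes had a wild-type promoter peak, and the 1 gene of that class was TRA2B.

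**Figure D1:**
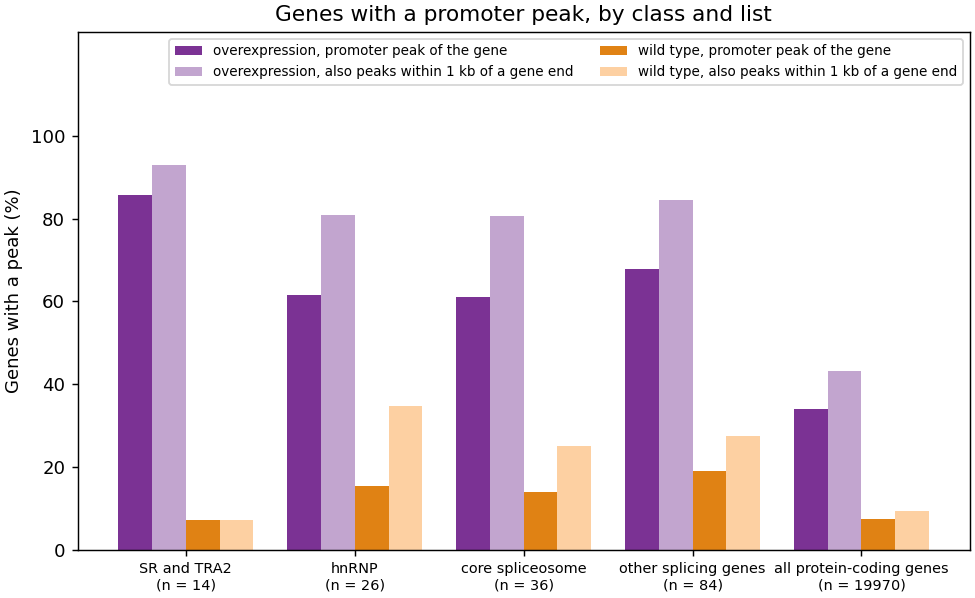
Bars give the percentage of genes with a promoter peak for 5 sets of genes, with AIMP1 overexpression and in wild type, by the authors' gene annotation (dark) and also counting peaks within 1 kb of a gene end in RefSeq (light). The overexpression bars of the splicing sets lie between 61.1% and 92.9%, above the 33.9% and 43.2% of all protein-coding genes.

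SR and hnRNP promoters stood high in the overexpression list by fold, and core promoters stood in its middle. The list held 59 promoter peaks at the 50 genes, with a median fold of 9.65 and a median width of 2110 bp, against 7.65 and 1684 bp for all 8300 promoter peaks. The 13 SR peaks had a median fold of 12.9 (quartiles 11.1 and 15.6), the 22 hnRNP peaks 11.8 (8.12 and 14.2) and the 24 core peaks 7.60 (6.36 and 8.81). Every SR peak, 17 of 22 hnRNP peaks and 12 of 24 core peaks lay above the median of all promoter peaks. The top 10% of promoter peaks by fold held 7 SR, 11 hnRNP and 2 core peaks, and the top 1% held 2, 3 and 0. As percentiles among all promoter peaks, the class medians were 93.9 for SR, 89.2 for hnRNP and 49.5 for core peaks. Members are not replicates, and no test was made between the classes.

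**Figure D2:**
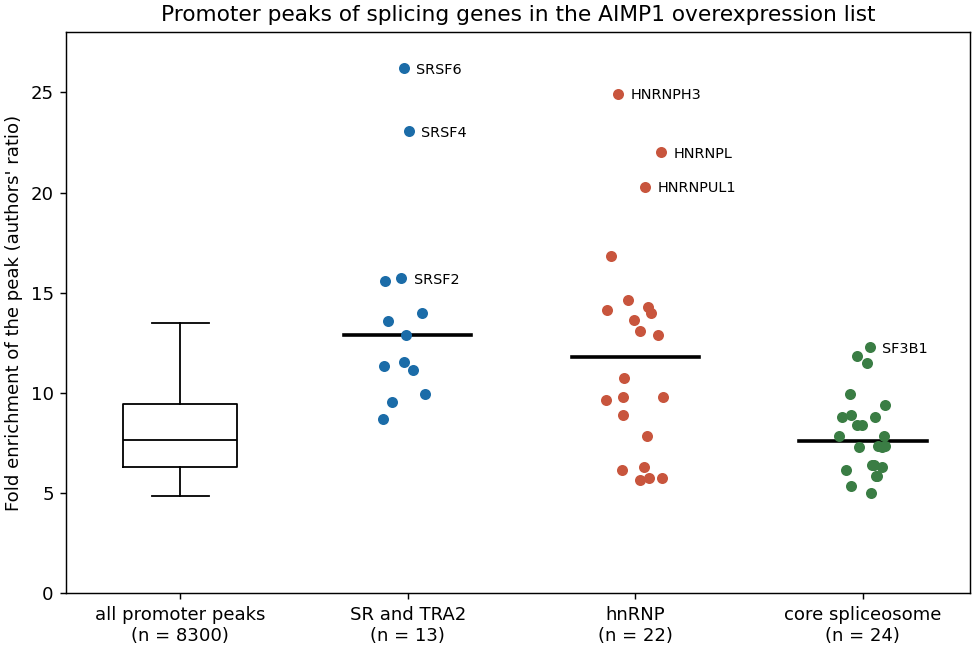
Fold enrichment of each promoter peak of splicing genes in the overexpression list, by class, beside all 8300 promoter peaks of that list (box with median and quartiles, whiskers at the 5th and 95th percentiles). Points are peaks and black lines class medians of 12.9, 11.8 and 7.60, with the core class near the median of all promoter peaks, 7.65.

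Widths followed a partly different order. Median widths were 2301 bp for SR, 2638 bp for hnRNP and 1870 bp for core peaks, at percentiles 75.8, 83.9 and 59.2 among all promoter peaks. The widest 10% of promoter peaks held 2 SR, 4 hnRNP and 3 core peaks.

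**Figure D3:**
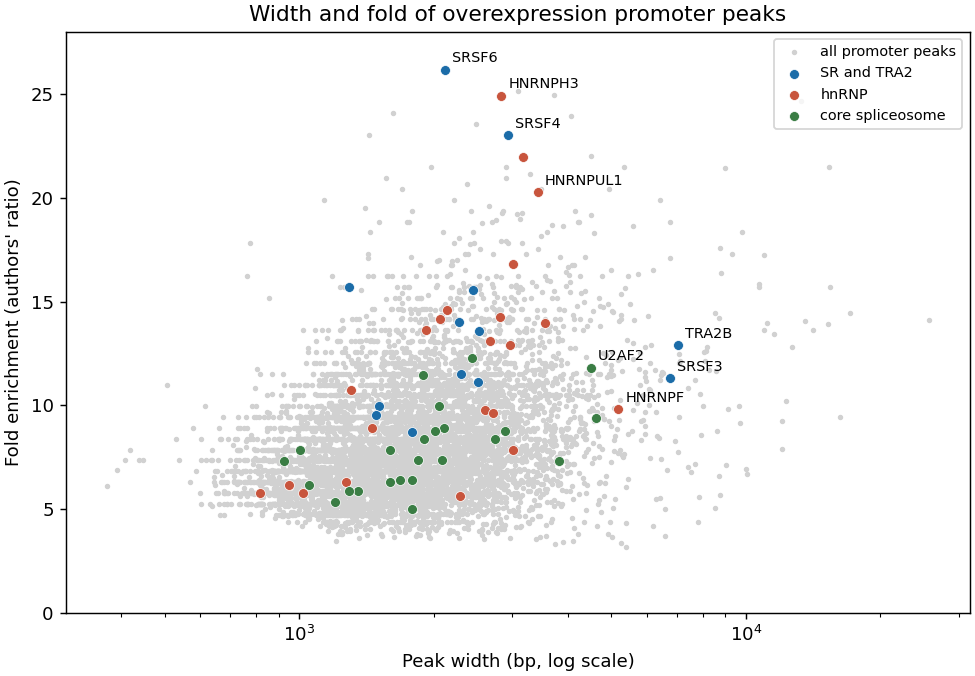
Width (bp, log scale) and fold enrichment of overexpression promoter peaks, with all 8300 in grey and splicing genes in colour. SRSF6 and HNRNPH3 had the highest folds (26.2 and 24.9) at widths of 2117 and 2835 bp, while TRA2B and SRSF3 were the widest (7047 and 6758 bp) at folds of 12.9 and 11.3.

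Among the SR genes, SRSF6 carried the second highest fold of all 9780 overexpression peaks. Its peak (chromosome 20, 43456805 to 43458921) reached 1123 bp before and 993 bp past the TSS. SRSF4, a close relative of SRSF6 with 2 RNA recognition domains, had rank 10 (chromosome 1, 29179947 to 29182873, fold 23.1, width 2927 bp). Neither had a wild-type peak. SRSF2, an exon enhancer-binding protein that is recurrently mutated in myeloid neoplasms, had rank 145 with a fold of 15.7 (chromosome 17, 76736075 to 76737369). SRSF1, the founding SR protein, had rank 172 with a fold of 15.6 (chromosome 17, 58005628 to 58008082), and SRSF10, which turns into a general splicing repressor when dephosphorylated, had rank 352 with 14.0. The splicing activators TRA2A and TRA2B had folds of 13.6 and 12.9, at ranks 420 and 527. The remaining genes spread over SRSF7 (11.5), SRSF3 (11.3), SRSF5 (11.1), SRSF11 (9.53) and SRSF8 (8.69), the last with rank 3110.

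By width the order of the SR genes was another. TRA2B had the 68th widest of all 9780 overexpression peaks (chromosome 3, 185931620 to 185938666), and 6516 of its 7047 bp lay past the TSS. SRSF3, the smallest SR protein, which also acts in RNA export, had the 75th widest (chromosome 6, 36593674 to 36600431), with 6078 bp past the TSS. The third widest SR promoter peak was that of SRSF4. TRA2B also had 1 of the 2 overexpression peaks of the rule outside promoters, a distal intergenic peak 34561 bp from a TSS (185884513 to 185887546, fold 5.61).

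Among the hnRNP genes, HNRNPH3, a G-tract-binding protein, had rank 5 of 9780 (chromosome 10, 68331173 to 68334007, fold 24.9). HNRNPL, which binds CA repeats, had rank 14 with a fold of 22.0 (chromosome 19, 38847286 to 38850458). HNRNPUL1, an hnRNP U-like protein, had rank 27 with 20.3 (chromosome 19, 41264051 to 41267466). HNRNPA0, which binds AU-rich messenger RNA, had rank 91 with 16.8 (chromosome 5, 137752435 to 137755448). HNRNPH1, of the same G-tract family as HNRNPH3, had rank 260 with 14.6 (chromosome 5, 179622599 to 179624735). Folds of 14.3 to 12.9 belonged to the poly-C-binding HNRNPK (14.3), to HNRNPLL (14.0), known for its part in CD45 splicing and in immunoglobulin messenger RNA processing in plasma cells, to the nuclear matrix protein HNRNPU (13.6), to HNRNPAB (13.1) and to HNRNPC (12.9), a binder of uridine tracts. At the other end HNRNPH2, on chromosome X, had a fold of 5.76 and 818 bp, the narrowest splicing promoter peak of the overexpression list. HNRNPF (5178 bp, chromosome 10, 43405437 to 43410614), HNRNPLL (3545 bp) and HNRNPUL1 (3416 bp) were the widest. The peak of the readthrough HNRNPUL2-BSCL2 was wider than any of these (chromosome 11, 62724374 to 62733133, 8760 bp, rank 38 by width) at a low fold of 5.69, rank 7955.

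HNRNPA1, which binds exonic silencers, had a fold of 9.78 and a width of 2607 bp (chromosome 12, 54280676 to 54283282), and a wild-type peak annotated to CBX5 overlapped it by 91 bp. The promoter peak of its copy HNRNPA1L2 (chromosome 13, 52599378 to 52600829, fold 8.91) belongs to a start in the authors' annotation, and the intronic peak of HNRNPA1L2 (52616511 to 52617498, fold 6.29) was put 16373 bp past that start. Copies of HNRNPA1 and HNRNPC are near-identical in places, and how the authors treated reads that map to several places is not given in the sources used here.

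Among the core genes, SF3B1, the branch point protein mutated in several blood cancers, had the highest fold, 12.3, at rank 659 (chromosome 2, 197433669 to 197436103). U2AF2, which binds the pyrimidine tract, had 11.8 (chromosome 19, 55653124 to 55657613) and was the 245th widest peak with 4490 bp. U2AF1L4, a relative of the acceptor-site protein U2AF1, had 11.5 at rank 988 (chromosome 19, 35744657 to 35746548). SNRPD1, of the Sm ring, had 9.96 (chromosome 18, 21611510 to 21613565), and SF3B3, a scaffold of the SF3B complex, had 9.40 in the widest core peak (chromosome 16, 70521583 to 70526198, 4616 bp). SF3B4 had the third widest, 3815 bp, at a fold of 7.31.

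Other Sm ring genes, SNRPD3 (8.77), SNRPG (8.38), SNRPB and SNRPE (7.34 each) and SNRPF (5.85), covered the middle and lower part of the list. SNRPC, of the U1 particle, had the lowest fold of all splicing promoter peaks in the overexpression list, 4.98 at rank 8904. The PRPF genes lay between PRPF8, the protein at the catalytic centre (8.91), and PRPF6, a bridge within the tri-snRNP (5.85). Between these were PRPF19, a ubiquitin ligase of the activated spliceosome (8.77), PRPF18 (8.37), PRPF38B (7.86) and PRPF31 (6.38). The highest fold was 7.86 for SF3A3, 7.31 for SF3B2, 6.29 for SF3A1 and 5.36 for SF3B5. The median fold was 6.29 over the 3 peaks annotated to SF3A1 and SF3A3, of which 2 are pieces of the SF3A3 promoter, and 7.31 over the 6 peaks annotated to SF3B genes. SF3A2 and SF3B6, whose start peaks were annotated to other genes, are not in these medians.

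The strongest point of most splicing promoter peaks in the overexpression list lay past the TSS, as in that list as a whole. The authors' summit was downstream of the annotated TSS in 12 of 13 SR, 15 of 22 hnRNP and 21 of 24 core peaks. It was downstream in 73.3% of all promoter peaks of that list, so the hnRNP share (68.2%) was below the list's. Median summit positions were 293, 289 and 284.5 bp past the TSS, against 244 bp. The median peak reached 1633 bp past the TSS for SR, 1644.5 bp for hnRNP and 1194.5 bp for core genes, against 1127.5 bp for all promoter peaks. Upstream the medians were 679, 709.5 and 777 bp, against 541.5 bp. The summit of HNRNPH3 lay 1138 bp past the start the authors annotated, and RefSeq lists more than 1 start for this gene. In the wild-type list the summit was downstream in 6 of 11 splicing promoter peaks, against 47.2% of all promoter peaks of that list.

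At 9 of the 50 genes (18.0%) the overexpression list held 2 promoter peaks, against 9.99% of protein-coding genes with any. In 7 of these 9 the peaks were separated by at most 200 bp, which was so for 191 of the 676 protein-coding genes with more than 1. At SRSF2 the gap was 3 bp, with folds of 15.7 on the side of the gene and 9.96 before it, so a span of 2806 bp was called as 2 peaks. The gap was 11 bp at HNRNPC (12.9 and 6.29), 16 bp at HNRNPUL1 (20.3 and 5.64) and 34 bp at HNRNPD, an AU-rich element binder (9.65 and 5.76). It was 78 bp at SF3A3 (7.86 and 6.16), 111 bp at HNRNPR (10.7 and 6.14) and 174 bp at SF3B2 (7.31 and 6.38). At HNRNPL the peaks lay 1333 bp apart (22.0 and 14.2) and at HNRNPF 7778 bp apart (9.80 and 7.86). At the 7 genes with gaps of at most 200 bp, the widths are therefore widths of pieces.

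Wild-type promoter peaks annotated to the splicing genes themselves were few, low in their own list by fold and above its middle by width. The 11 peaks at 10 genes had a median fold of 3.94 and a median width of 1160 bp, against 4.47 and 943 bp for all 1739 wild-type promoter peaks. Their median percentile was 28.9 by fold and 67.1 by width. By class these percentiles were 48.0 and 39.85 for 5 hnRNP peaks and 28.9 and 67.1 for 5 core peaks. The 1 SR peak stood at 6.96 and 94.1. The hnRNP peaks were thus near the middle by fold and below it by width. The highest of these wild-type folds were 5.14 each, at SNRPD3 and PRPF6. Wild-type promoter peaks over starts of splicing genes but annotated to other genes are not included. By fold these stood at percentiles 94.8 (SF3B6), 93.5 (SF3A2), 48.0 (SNRPD2), 45.7 (HNRNPM), 35.3 (PRPF38A), 5.15 (HNRNPA2B1) and 4.08 (HNRNPUL2). The folds at SF3B6 (6.07) and SF3A2 (5.82) were above 5.14.

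TRA2B, the 1 gene of the SR class, had a wild-type peak of 2076 bp with a fold of 3.22 (chromosome 3, 185936789 to 185938864), rank 187 of 4828 by width and 4545 by fold. The overexpression peak covered 90.5% of it. At HNRNPA0 the wild-type list had a peak over the start (137753806 to 137755000, fold 3.49), wholly inside the overexpression peak, and another (137751663 to 137752314, fold 4.39) that ended 120 bp from it. HNRNPAB had a wild-type fold of 4.57 and a width of 654 bp within 2669 bp (chromosome 5, 178204250 to 178204903). HNRNPL had 4.91 (chromosome 19, 38852924 to 38853765), inside the overexpression peak of fold 14.2 and not in the one of fold 22.0. HNRNPLL had 3.87 (chromosome 2, 38599704 to 38601019), inside the overexpression peak and between 1909 and 3224 bp past the RefSeq start.

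SNRPD3 (chromosome 22, 24555190 to 24556025) had the wild-type peak whose summit lay closest to that of the overexpression peak, 60 bp away, with folds of 5.14 and 8.77 in their own lists. PRPF6 (chromosome 20, 63980769 to 63981406) had 5.14 and 5.85, at ranks 779 of 4828 and 7323 of 9780. PRPF8 (chromosome 17, 1684377 to 1685536) had 3.84 and 8.91, and U2AF2 (chromosome 19, 55653503 to 55654717) had 3.23 and 11.8. Among wild-type promoter peaks annotated to the splicing genes themselves, that of SF3B4 was the widest (chromosome 1, 149926917 to 149929624, 2708 bp, fold 3.94, authors' p 6.58e-09). It began at position -1821 from the RefSeq start where the overexpression peak began at -858. In 8 of the 10 genes the overlapping wild-type peak lay wholly inside the overexpression peak, SF3B4 (64.4%) and TRA2B being the exceptions. The overexpression peak was 1.41 times (SF3B4) to 4.08 times (HNRNPAB) as wide; over the lists as a whole, median widths were 1621 and 828.5 bp.

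HNRNPUL2-BSCL2 also had a peak in both lists, the wild-type one of 3153 bp with a fold of 3.07 lying wholly inside the overexpression peak. Outside promoters the wild-type list had 2 peaks of the rule. One was annotated to PRPF4, a tri-snRNP protein (chromosome 9, 113268465 to 113269114, fold 5.02), with the nearest overexpression peak 5702 bp away. It was classed as intronic but lay wholly before the annotated PRPF4 start, ending at position -6229 from it. The other was annotated to SNRPD2, of the Sm ring (chromosome 19, 45685546 to 45686668, downstream, fold 3.99), with the nearest overexpression peak 3404 bp away.

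**Figure D4:**
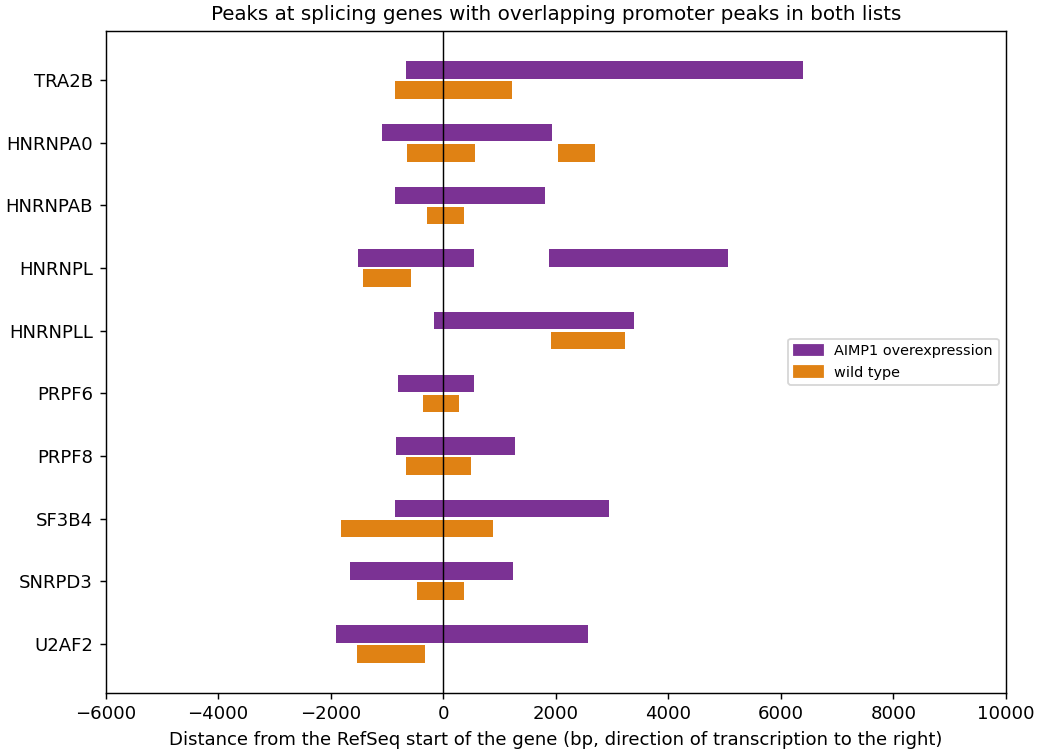
Peaks around the first RefSeq start of the 10 splicing genes whose promoter peaks overlapped, in bp along the direction of transcription, overexpression in purple and wild type in orange. The wild-type bars lie within the overexpression bars except at TRA2B and SF3B4 and for the second wild-type peak of HNRNPA0.

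The authors' lists give 1 gene per peak, so a start shared with a neighbour is counted for 1 of the pair. Of the 26 splicing genes with no overexpression promoter peak of their own, 13 had an overexpression promoter peak within 1 kb of a gene end in RefSeq that was annotated to another gene. With these, 63 of 76 splicing genes (82.9%) had an overexpression peak, against 43.2% of protein-coding genes. They were 13 of 14 SR and TRA2 genes, 21 of 26 hnRNP genes, 29 of 36 core genes and all 9 SF3A and SF3B genes. In the wild-type list 19 of 76 (25%) then had one, against 9.47%, and all 19 were among the 63 (7.69% of protein-coding genes had both). The 9 genes added were SF3A2, SF3B6, SNRPD2, PRPF38A, HNRNPA1, HNRNPA2B1, HNRNPM, HNRNPUL1 and HNRNPUL2. These counts take in either end of a gene and so are not counts of promoters.

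HNRNPA2B1, a binder of exonic splicing silencers, shares a divergent start region with the heterochromatin gene CBX3, to which both peaks there were annotated. The overexpression peak (chromosome 7, 26197522 to 26205795) was 8274 bp wide, rank 47 of 9780, with a fold of 11.7, and the wild-type peak (26198130 to 26201839) was 3710 bp wide, rank 33 of 4828, with a fold of 3.13. HNRNPM, which regulates alternative exons, lay at a peak annotated to ELAVL1 (chromosome 19, 8444036 to 8446518, fold 11.7), with a wild-type peak of fold 4.33. HNRNPDL (annotated to ENOPH1, fold 14.2) and HNRNPA3 (annotated to MIR4444-1, 10.7) had overexpression peaks only, and HNRNPUL2 lay under the readthrough peak. SRSF9, which like SRSF12 had no peak of its own symbol, lay at a peak annotated to DYNLL1 (chromosome 12, 120468604 to 120470463, fold 6.20).

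For the core, SF3A2 lay at a peak annotated to MIR6789 (chromosome 19, 2234699 to 2239756, 5058 bp, fold 9.86), with a wild-type peak annotated to PLEKHJ1 (fold 5.82). SF3B6, which contacts the branch point, lay at peaks annotated to FAM228B in both lists (folds 7.45 and 6.07), and the wild-type one had rank 197 of 4828. SNRPD2 lay at peaks annotated to QPCTL (9.29 and 4.39) and PRPF38A at peaks annotated to the replication gene ORC1 (8.18 and 4.03). PRPF4 (CDC26, 8.28) and the U1 gene SNRPA (C19orf54, 5.85) had overexpression peaks only at their starts. A RefSeq start was available for 12 of the 13 genes, and the overexpression peak covered it in all 12, the wild-type peak in 7.

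**Figure D5:**
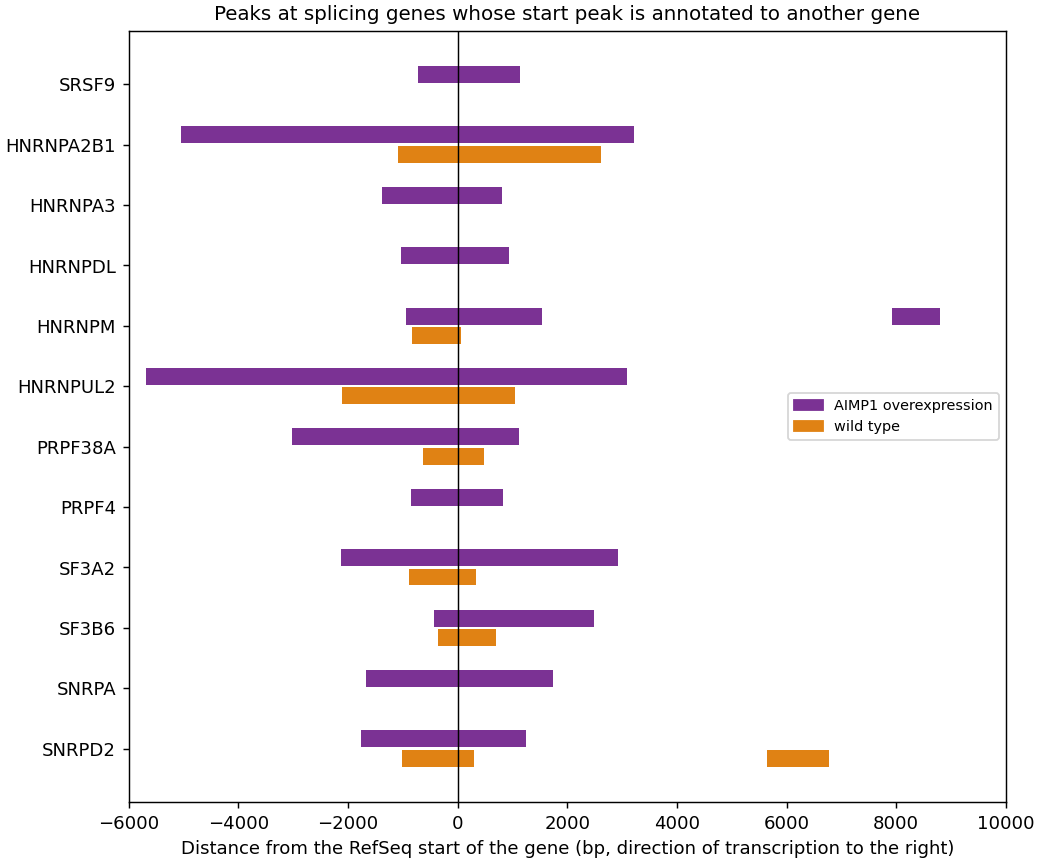
Peaks around the first RefSeq start of 12 splicing genes whose start peak was annotated to another gene, in bp along the direction of transcription, overexpression in purple and wild type in orange. Peaks beyond the span of the axis are not drawn. An overexpression bar crosses the start in all 12 genes and a wild-type bar in 7.

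The 13 genes with no overexpression peak by either count were SRSF12, HNRNPA1L3, HNRNPCL1, HNRNPCL2, HNRNPCL3, HNRNPCL4, PRPF3, PRPF39, PRPF40B, SNRPA1, SNRPB2, SNRPN and U2AF1, and none had a wild-type peak there. The HNRNPCL genes are intronless copies of HNRNPC, and the nearest overexpression peak lay 228 to 544 kb from them. It lay 3.83 kb from SNRPA1, a U2 protein gene, 10.0 kb from PRPF3, 14.4 kb from SRSF12 and 17.4 kb from PRPF39. For PRPF40B it was 54.1 kb, and for U2AF1 it was 116 kb. The distance was 458 kb for SNRPN, an imprinted Sm protein gene best known from brain, 939 kb for SNRPB2 and 1280 kb for HNRNPA1L3. RefSeq holds a further locus with the synonym U2AF1L5, a near-identical copy of U2AF1, so reads from U2AF1 may not be placed at 1 site, which was not tested. For U2AF1 and for the other genes named here, the lack of a peak cannot be read as a lack of acetylation.

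A wider list of 84 other splicing genes gave shares near those of the named families. Promoter peaks were listed for 57 of them (67.9%) with AIMP1 overexpression, for 16 (19.0%) in wild type and for 15 (17.9%) in both lists, against 33.9%, 7.40% and 5.39% of protein-coding genes. The alternative-splicing regulator MBNL2 was the 1 of the 84 with a promoter peak in wild type alone (fold 4.84), as 2.01% of protein-coding genes were. The 64 overexpression peaks had a median fold of 9.09 and a median width of 2090.5 bp, between the core and the hnRNP values. PTBP1, the polypyrimidine tract repressor, had the highest fold (22.0, rank 13, 4507 bp), followed by RBM39, the target of indisulam-type degraders (17.9), the RNA-binding protein gene EWSR1 (17.8) and CLK3 (14.2), a kinase of SR proteins. Genes with promoter peaks in both lists included CLK3 (wild-type fold 4.54), ELAVL1 (11.7 and 4.33) and SF1, the first branch point binder (10.4 and 3.53). The ELAVL1 peaks are the same ones that lie at the start of HNRNPM.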

How the data were processed

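Acetyl-H3 ChIP-seq peak lists of 2 libraries, 1 per group, were used; 2 inputs were not analysed here. Per the submitters' processing notes, cutadapt, Trimmomatic, FastQC and Bowtie2 were run. The peak caller, threshold, use of the inputs, genome build and read depth were not given in the sources used here. Per the file headers, each deposited peak has a fold enrichment, a ratio over a background the headers do not describe, and a p-value, at most 0.001 in both lists. Coordinates are the files' own, counted from 1. Gene identifiers were matched to RefSeq (GRCh38.p14): 8088 of 8100 and 3489 of 3497 matched, and 99.8% of these in each list lay at the same gene. RefSeq gave gene names, neighbours, starts and promoter sequences. Protein-coding genes on chromosomes 1 to 22 and X were the background.

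Genes were counted by the authors' promoter class, and peaks overlapped from 1 bp. Ranks give ties the same, lowest number. Percentiles are the share of a list's promoter peaks below a value, ties counted at the midpoint. The overlap step was tested on simulated data. Members and lists were chosen with earlier results of these data known. The text names the 5 highest folds and 3 widest peaks per class, every member with a wild-type peak, and every member without an overexpression promoter peak; other members are given by value, and from the wider list the 4 highest folds and the shared genes with the highest folds. Of the genes this rule takes, 2 are not reported here. Peaks at gene ends annotated to other genes were added to class medians only after seeing the data. Python 3.11.15, pandas 2.3.3, numpy 2.4.6 and matplotlib 3.10.9 were used.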

Additional observations from a re-analysis of the deposited data

How the results depend on the processing

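No paired analysis was possible because the groups share 1 replicate number and hold 1 library apiece. The 50 splicing genes with an overexpression promoter peak were between 42 (lists of equal length, 19.9% of protein-coding genes) and 63 (peaks within 1 kb of a gene end, 43.2%) under the alternatives run. By class the counts were 12 to 13 for SR, 15 to 21 for hnRNP and 15 to 29 for core genes. Wild-type counts depended on the threshold. At p of at most 1e-05, 2 of 76 genes had a wild-type promoter peak (1.34% of protein-coding genes) and 2 had one in both lists (0.901%). Overlapping promoter peaks were found at 2 genes, and the share of all genes with these is not given at this cut-off. Counts of 2 are too small to be placed above the background or level with it. With only peaks reaching the pooled median fold (6.11) there were 0 in wild type (0.351%) and 0 in both lists (0.240%). The highest fold of a wild-type promoter peak annotated to a splicing gene was 5.14, and the wild-type list median was 4.47. These counts of 0 therefore follow from the scale of the wild-type folds. With peaks within 1 kb of a gene end there were 19 and 19 (9.47% and 7.69%). In the overexpression list the median percentile of splicing promoter peaks by fold was 76.5. It was 76.3 with 1 peak per gene, 78.5 with any annotated peak, 78.7 with lists of equal length, 73.3 from the pooled median fold up, 71.5 at p of at most 1e-05 and 75.7 for promoters within 1 kb. By width, 69.5, it was 71.4, 71.6, 65.4, 69.9, 61.1 and 68.8 in the same order. Over 8 settings the class medians by fold ranged from 88.9 to 94.0 (SR), 86.3 to 94.4 (hnRNP) and 39.3 to 54.3 (core): core was lowest in each, and the order of SR and hnRNP changed. By width the class medians ranged more widely for SR, from 59.5 to 79.3. They ranged from 78.2 to 85.6 for hnRNP and from 46.8 to 62 for core, with hnRNP highest and core lowest in each setting. Medians with start peaks annotated to other genes, 1 of these settings, were added after seeing the data. The depth of the libraries is unknown.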
